A study of Homo sapiens with 12 samples.

Results

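The mitochondrial ribosomal protein genes are the nuclear genes whose symbols begin with MRPL or MRPS, for large and small subunit proteins. They were chosen by name alone, as protein-coding genes with such a symbol followed by a number and at most 1 letter from A to C. The rule found 77 genes among the 60106 genes in the tables, of which 20298 are protein-coding; 48 are named MRPL and 29 MRPS. All 77 passed the filter on low counts in both cell lines.

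The study knocked down FOXA1, a forkhead transcription factor of prostate epithelium, in PC3 and VCaP, which are established human prostate cancer cell lines. PC3 cells received 20 nM and VCaP cells 40 nM of a non-targeting siRNA (NSI) or of an siRNA against FOXA1 (siFOXA1), with 3 libraries in each of the 4 groups, and RNA was collected after 72 hours. PC3 was grown in RPMI and sequenced as stranded mRNA libraries. VCaP was grown in DMEM and sequenced as total RNA libraries. Line, dose, medium, library kit and use of strand in counting cannot be told apart. No label says whether replicates were separate cultures, so p-values measure the spread between these libraries, which may be technical.

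Mitochondria keep their own ribosome, which makes the few proteins encoded by mitochondrial DNA, all of them subunits of the oxidative phosphorylation complexes. Its 2 rRNAs are transcribed inside the organelle, whereas every one of its proteins is made in the cytosol from a nuclear gene and imported. Many of the proteins have relatives in bacterial ribosomes, and others are found in mitochondria only. By role, 50 of the genes encode proteins of the large subunit, which forms peptide bonds, and 26 proteins of the small subunit, which reads the mRNA. MRPS36 keeps its ribosomal name but encodes a component of a dehydrogenase complex. MRPS18A and MRPS30 bear small-subunit names and belong to the large subunit. In all, 46 members have a bacterial relative, 28 are specific to mitochondria, and MRPS18A and MRPS18B are extra copies of a bacterial type. The genes lie on 21 chromosomes, with no more than 8 on any of them.

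The promoters of 4 members are shown because their genes mark the extremes of the response: MRPS10 fell in both lines, MRPS7 had the deepest fall in PC3, MRPL17 was called lower in VCaP and not in PC3, and MRPS6 rose in VCaP. Each is the 300 bases from 250 before to 50 after the RefSeq start, on GRCh38.p14, written 5′ to 3′ on the gene's strand. They are MRPS10 at chr6:42217812-42218111 (minus strand), MRPS7 at chr17:75261629-75261928 (plus strand), MRPL17 at chr11:6683291-6683590 (minus strand) and MRPS6 at chr21:34073328-34073627 (plus strand). Capitals mark letters matching a FOXA motif (TGTTTNC), an ETS motif (CCGGAAG), a YY1 motif (AAGATGGCG) or an NRF1 motif on either strand. In MRPL17 the NRF1 match and a FOXA match share bases and run together.
MRPS10: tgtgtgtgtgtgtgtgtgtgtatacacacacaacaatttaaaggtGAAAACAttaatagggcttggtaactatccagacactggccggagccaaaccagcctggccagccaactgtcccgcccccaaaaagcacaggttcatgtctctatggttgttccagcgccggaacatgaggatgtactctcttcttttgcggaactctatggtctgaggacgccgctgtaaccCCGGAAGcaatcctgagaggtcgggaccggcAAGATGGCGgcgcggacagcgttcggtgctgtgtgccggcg
MRPS7: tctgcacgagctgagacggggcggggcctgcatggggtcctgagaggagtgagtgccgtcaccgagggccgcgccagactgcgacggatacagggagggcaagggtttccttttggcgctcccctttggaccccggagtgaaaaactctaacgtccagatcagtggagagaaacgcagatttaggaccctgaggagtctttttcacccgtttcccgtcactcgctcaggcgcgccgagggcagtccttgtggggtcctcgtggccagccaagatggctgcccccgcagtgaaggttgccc
MRPL17: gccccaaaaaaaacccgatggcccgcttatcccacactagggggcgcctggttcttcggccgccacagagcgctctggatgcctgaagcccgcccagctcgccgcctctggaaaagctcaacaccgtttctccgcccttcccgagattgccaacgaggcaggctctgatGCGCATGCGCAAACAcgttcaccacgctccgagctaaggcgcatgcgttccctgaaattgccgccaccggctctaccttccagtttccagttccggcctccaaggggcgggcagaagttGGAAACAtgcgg
MRPS6: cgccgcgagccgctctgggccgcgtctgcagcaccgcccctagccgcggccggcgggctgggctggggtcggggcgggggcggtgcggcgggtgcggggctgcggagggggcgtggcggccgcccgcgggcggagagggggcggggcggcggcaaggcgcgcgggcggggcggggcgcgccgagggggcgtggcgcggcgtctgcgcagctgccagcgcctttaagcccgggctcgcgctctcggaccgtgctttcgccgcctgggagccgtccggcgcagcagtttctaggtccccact

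The MRPS10 promoter held 1 FOXA, 1 ETS and 1 YY1 match, the MRPL17 promoter 2 FOXA matches and 1 NRF1 match, and those of MRPS7 and MRPS6 none of these letters. Promoters of 68 of the 77 members were matched by symbol; MRPL10, MRPL13, MRPL15, MRPL2, MRPL21, MRPL23, MRPL35, MRPS28 and MRPS36 were not. The ETS letters stood in 28 of the 68 (41.2%), against 10.3% of all 35116 promoters of this length and 12.8% of protein-coding ones. The YY1 letters stood in 13 (19.1%), against 1.75% and 2.41%. FOXA letters stood in 7 of 68 members (10.3%), against 18% of all promoters and 15.3% of protein-coding ones. Among the promoters of members called lower, as defined below, FOXA letters stood in 3 of 24 in PC3 and 3 of 32 in VCaP. The NRF1 letters were found in 1.47% of members and 1.24% of all promoters, and an E-box (CACGTG) in 8.82% and 7.26%. The motifs were chosen after the files were examined, no test was run on these shares, and a match is a description of letters, not of binding.

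Levels per length are given as TPM, which scales counts by exon length and by library, computed from the counts and exon lengths. Under NSI the members' median TPM was 46.1 in PC3, with a range of 7.23 to 183.5, and 13.2 in VCaP, with a range of 1.94 to 59.3. The order of the members was alike in part between lines (Spearman 0.65 across the 77 genes, a description only, since genes are not replicates and share libraries). MRPS16, MRPS34 and MRPL24 had the highest TPM in PC3 and MRPL49, MRPL3 and MRPS26 in VCaP, as means of 3 libraries. MRPS14, MRPL42 and MRPL35 were lowest in PC3, and MRPL55, MRPL2 and MRPL22 in VCaP. Because the kits differ, the levels of the 2 lines are set side by side without a test.

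**Figure D1:**
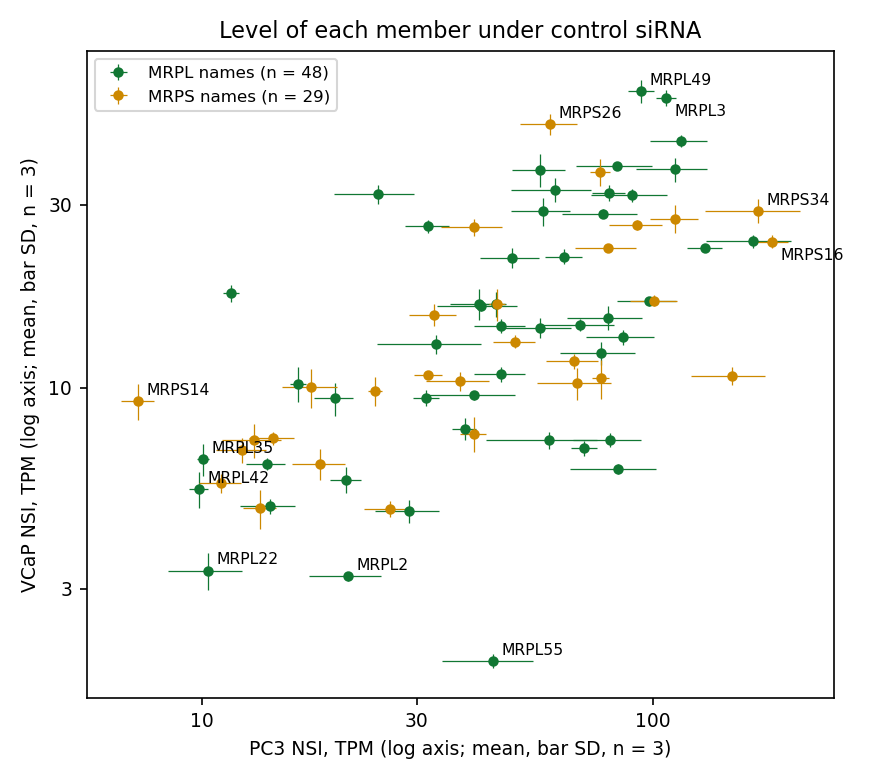
TPM of the 77 members under NSI in PC3 (x axis, log scale) and VCaP (y axis, log scale). Points are means and bars SD of 3 libraries, green for MRPL and ochre for MRPS names; the medians were 46.1 and 13.2.

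Library totals were 123140099 to 188226483 counts in PC3 and 48187047 to 59839211 in VCaP. CPM are counts scaled to a common library size. FOXA1 itself was 296.2, 246.5 and 260.9 CPM in PC3 NSI and 165.0, 184.1 and 163.6 in PC3 siFOXA1, which leaves 63.8% of the NSI mean. In VCaP it was 457.6, 467.9 and 543.5 under NSI and 85.19, 73.56 and 83.05 under siFOXA1, or 16.5%. FOXA1 did not overlap between groups in either line (edgeR log2 fold changes -0.65, adjusted p = 0.00222, and -2.60, adjusted p = 1.84e-07). The epithelial markers KRT8, KRT18 and EPCAM were detected in both lines. KLK3 and ERG were detected in VCaP and were near 0 in PC3, where VIM was high. Of the markers fixed for other cell types, PTPRC and CD3E of leukocytes were near 0 in all 4 groups. COL1A1, a fibroblast marker, averaged 5.50 TPM in PC3 NSI and 9.10 in PC3 siFOXA1, and 0.26 and 0.12 in VCaP. PDGFRB, of fibroblasts and mural cells, averaged 0.29 TPM in PC3 NSI and less in the other groups. The 2 PC3 libraries numbered 2 stood apart: 76 of 77 members lay above the group mean in NSI replicate 2 and 73 of 77 in siFOXA1 replicate 2. In those libraries the members' median deviation from the group mean was 0.25 and 0.19 on the log2 scale. Protein-coding genes with a mean CPM of at least 5 were divided by exon length into 3 classes of equal size. The short class deviated by a median of 0.18 and 0.13 there, and the long class by -0.12 and -0.11. Most members are short, with a median exon length of 1640 bases, and 64 of 77 fall within the lengths of the short class in PC3.

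In PC3, 24 of the 77 members were called lower after FOXA1 knockdown, 53 were not called and none was called higher. The members' CPM summed to 3619, 4747 and 3869 in the NSI libraries and to 3060, 3727 and 2992 in the siFOXA1 libraries. These sums overlap between groups, since siFOXA1 replicate 2 exceeded NSI replicate 1. In edgeR's quasi-likelihood test with Benjamini-Hochberg adjustment over 26435 genes, the 24 lower and 0 higher calls were made at an adjusted p under 0.05. Over all genes tested, 12.1% were called lower and 15% higher. At an unadjusted p under 0.05 edgeR had 0 higher members, and DESeq2 called 31 lower and 0 higher. The log2 fold change was negative in 72 of 77 members, with a median of -0.32 against 0.02 over all genes tested. Protein-coding genes of the short class had a median of -0.14 in PC3, with 18.2% called lower; the part of transcript length in the members' result was not tested. Values of NSI and siFOXA1 did not overlap in 31 members in the lower direction and 1 in the higher, where the background was 20.5% and 23.9%. Of 15870 protein-coding genes tested, 3563 did not overlap in the lower direction and 3954 in the higher. The count of 24 moved with single libraries: it was 10 without siFOXA1 replicate 1, 15 without siFOXA1 replicate 3, 42 without siFOXA1 replicate 2 and 54, with 1 higher, without both libraries numbered 2. With the replicate number as a block it was 59 lower and 1 higher.

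**Figure D2:**
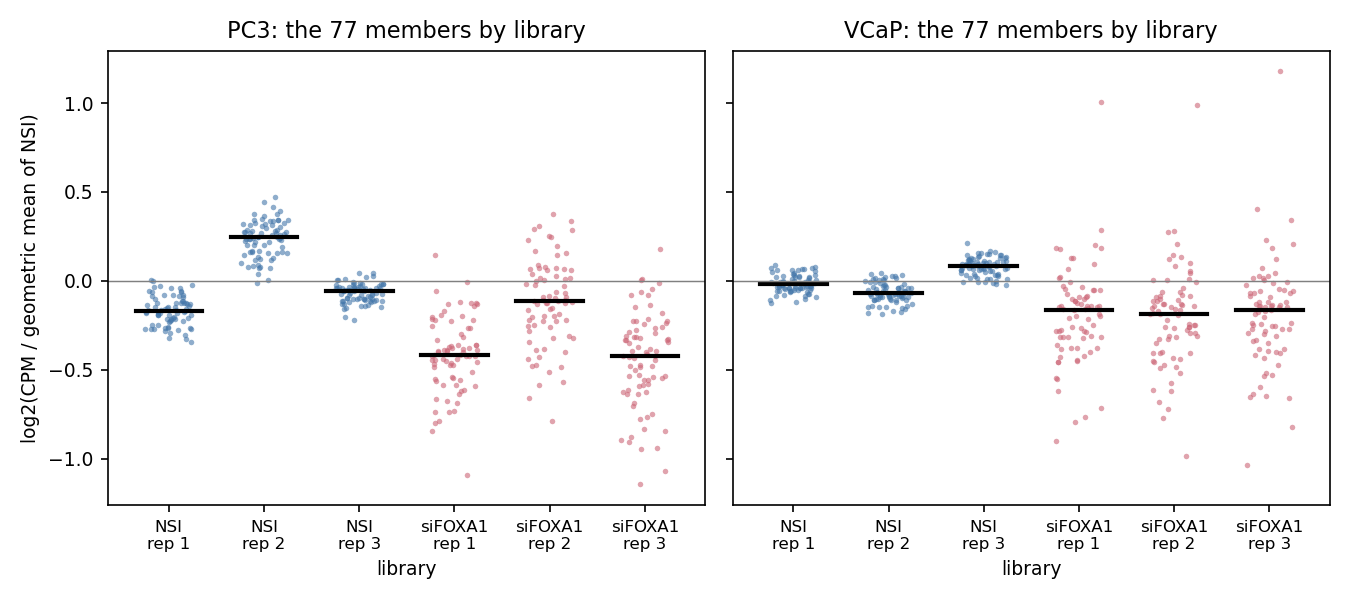
Log2 ratio of each member's CPM to its geometric mean in NSI of the same line, by library (blue NSI, red siFOXA1; 77 points per library, black line the median). In PC3 both libraries numbered 2 sit above the others of their group, and in VCaP the siFOXA1 medians lie below all 3 NSI medians.

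MRPS7, a small-subunit head protein with a bacterial relative, lies at chr17:73257755-73262454 on GRCh37. Its CPM in PC3 was 72.4, 92.0 and 76.8 under NSI and 37.5, 46.4 and 38.1 under siFOXA1. The groups stood well apart, with a log2 fold change of -0.98 (SE 0.12, edgeR adjusted p = 0.000819). Across 12.4% of its exon length it overlaps GGA3 and MIF4GD on the other strand, which PC3 counting did not separate; neither was called in PC3 (-0.12, SE 0.079, and 0.05, SE 0.091). MRPL1, part of the mobile L1 stalk, was 9.32, 10.2 and 9.61 under NSI and 5.399, 6.15 and 5.29 under siFOXA1. All 3 siFOXA1 values lay below the NSI values, a change of -0.79 (SE 0.11, edgeR adjusted p = 0.00109). MRPL22, which lines the exit tunnel for the new peptide, went from 16.1, 23.7 and 17.3 to 10.8, 12.5 and 9.98. NSI replicate 2 was the high value there, and the change was -0.78 (SE 0.16, edgeR adjusted p = 0.00799).

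MRPS10, also in the small-subunit head, had libraries close together in PC3: 90.4, 89.8 and 91.0 under NSI and 65.2, 64.6 and 67.4 under siFOXA1. That is a log2 fold change of -0.46 (SE 0.075, edgeR adjusted p = 0.00297). MRPL50, specific to mitochondria, was 35.7, 42.3 and 39.0 under NSI and 23.3, 28.02 and 25.2 under siFOXA1, a change of -0.61 (edgeR adjusted p = 0.00358). MRPL42 was 86.2, 88.8 and 90.02 and then 65.9, 67.0 and 63.0, a change of -0.44 (edgeR adjusted p = 0.00437). MRPS2, with a bacterial relative in the small subunit, was 75.7, 100.7 and 78.6 and then 52.7, 56.9 and 51.8. Its change was -0.66 (edgeR adjusted p = 0.00487), and no siFOXA1 value reached an NSI value in any of these genes. RP11-426A6.5, which overlaps MRPS2 on the other strand over 19.0% of its exons, also fell in PC3 (-0.63). The other members called lower in PC3 were MRPL16, MRPS12, MRPS5, MRPL48, MRPL46, MRPL11, MRPS15, MRPS9, MRPL45, MRPL43, MRPL20, MRPL30, MRPL47, MRPL3, MRPS27, MRPS30 and MRPS16, with changes from -0.69 to -0.36. Of the 24 calls, 14 were lost without siFOXA1 replicate 1: those of MRPL20, MRPS15, MRPS5, MRPS9, MRPL47, MRPS30, MRPS27, MRPS16, MRPL43, MRPL16, MRPL11, MRPL46, MRPL45 and MRPS12. Of the same 14, 9 were lost without siFOXA1 replicate 3 (MRPL20, MRPS15, MRPS9, MRPL47, MRPS16, MRPL43, MRPL11, MRPL46 and MRPS12). Without NSI replicate 3, 7 were lost (MRPL20, MRPL47, MRPS16, MRPL43, MRPL11, MRPL46 and MRPS12), without NSI replicate 2 the calls of these except MRPS16, and without NSI replicate 1 those of MRPS9 and MRPL46. The 10 calls kept whichever PC3 library was left out were those of MRPL30, MRPL3, MRPL1, MRPL22, MRPS10, MRPL50, MRPS2, MRPL48, MRPL42 and MRPS7. Of these, MRPL30 shares 20.16% of its exon length with other genes on the same strand. Among the other PC3 calls, MRPL46 (31.89%) and MRPL20 (20.55%) do so too. MRPL43 (30.36%), MRPS12 (21.46%) and MRPS9 (11.33%) overlap genes on the other strand, which PC3 counting did not separate. The part of these overlaps in the values was not tested. MRPL12, the stalk protein that recruits translation factors, was not called in PC3 (-0.63, edgeR adjusted p = 0.0564), and 8 of 15 alternatives put it past the threshold. It shares 68.2% of its exon length on the same strand with RP13-1032I1.10, which was lower in both lines (-0.59 in PC3 and -0.26 in VCaP), so the value of MRPL12 is uncertain.

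In VCaP, 35 of the 77 members were called lower, 38 were not called and 4 were called higher. The members' CPM summed to 2608, 2523 and 2792 under NSI and to 2268, 2250 and 2276 under siFOXA1, and these groups did not overlap. These edgeR calls were made over 22925 genes tested, of which 23.3% were called lower and 22.5% higher. Of the 35 lower calls, 29 were kept whichever VCaP library was left out, and the other 6 (MRPL53, MRPL44, MRPS18A, MRPL15, MRPS2 and MRPL41) were each lost without at least 1 library. The log2 fold change was negative in 65 of 77 members, with a median of -0.18 against 0.02 over all genes tested. Groups did not overlap in 49 members in the lower direction and 5 in the higher, with a background of 28% and 27.9%. Of 14629 protein-coding genes tested, groups did not overlap in 5111 in the lower direction and 4478 in the higher. The short class of protein-coding genes had a median of -0.10 in VCaP, with 37% called lower; the part of transcript length was not tested here either. The mitochondrially encoded share of counts was 3.02% to 3.29% under NSI and 4.04% to 4.69% under siFOXA1. With those genes left out of the table the calls were again 35 lower and 4 higher.

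**Figure D3:**
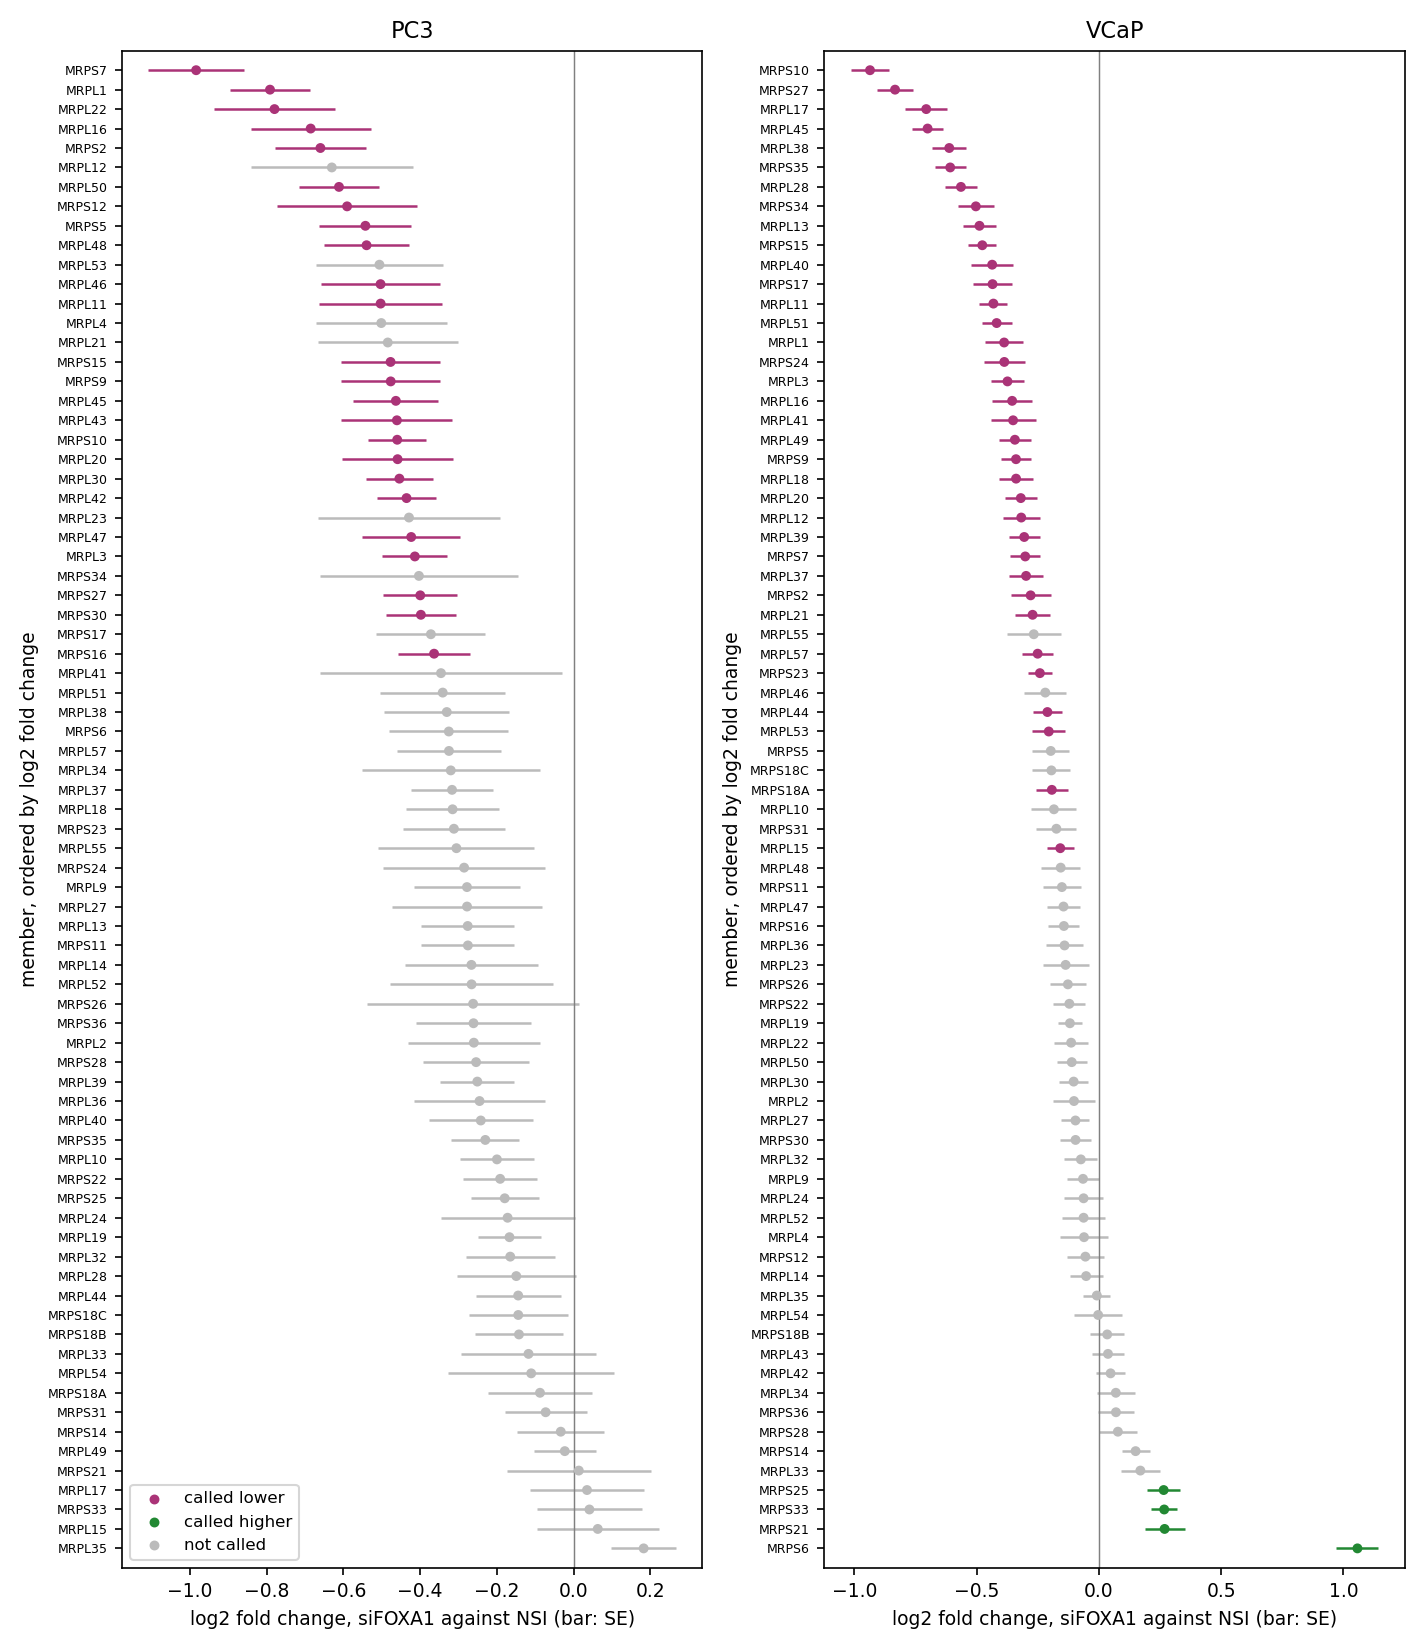
Log2 fold change, siFOXA1 against NSI, of each member in PC3 (left) and VCaP (right), ordered within each line; bars are the SE of the fit, purple marks members called lower, green members called higher and grey members not called. The range was -0.98 to 0.18 in PC3 and -0.94 to 1.06 in VCaP.

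MRPS10 had the deepest fall in VCaP, from 25.5, 27.4 and 26.9 CPM to 15.3, 13.4 and 13.0. The log2 fold change was -0.94 (SE 0.078, edgeR adjusted p = 1.42e-05). MRPS27, a pentatricopeptide-repeat protein of the small subunit, went from 45.3, 42.4 and 49.9 to 24.5, 26.8 and 25.9, or -0.83 (SE 0.072, edgeR adjusted p = 1.76e-05). Both genes lay far below every NSI library in all 3 siFOXA1 libraries. MRPL45, which holds the tunnel exit near the inner membrane, went from 53.2, 50.7 and 57.4 to 32.7, 32.5 and 33.9, or -0.70 (SE 0.062, edgeR adjusted p = 1.92e-05). MRPL17, another protein at the exit tunnel, went from 40.4, 34.7 and 43.9 to 23.2, 24.6 and 25.2, or -0.71 (SE 0.087, edgeR adjusted p = 0.000151). The exit tunnel group as a whole had 4 of 8 members called lower in VCaP and 3 of 8 in PC3. Over all genes tested the shares called lower were 23.3% and 12.1%. So small a class differs from those shares by few genes, and nothing is read from its counts. MRPS35 (-0.61), MRPL38 of the central protuberance (-0.61) and MRPL28 (-0.56) completed the members with the smallest adjusted p. None of them had overlapping groups: MRPS35, for example, was 78.1, 81.7 and 87.4 under NSI and 56.1, 53.7 and 52.3 under siFOXA1.

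The 4 members that rose in VCaP all belong to the small subunit. They are 15.4% of its 26 members, below the 22.5% called higher over all genes tested. MRPS6, in the small-subunit platform, rose from 11.1, 12.2 and 13.2 CPM to 24.4, 24.1 and 27.4, or 208% of NSI, with a log2 fold change of 1.06 (SE 0.086, edgeR adjusted p = 1.17e-05). Its exons overlap AP000320.7 and SLC5A3, a solute transporter gene, on the same strand over 31.9% of their length. Fragments there were divided among the genes, and in VCaP AP000320.7 also rose (1.03) and so did SLC5A3 (0.43). The value of MRPS6 is therefore uncertain. MRPS33 rose from 37.4, 36.7 and 38.6 to 45.9, 45.6 and 44.1, or 0.27 (edgeR adjusted p = 0.00259). MRPS25 rose from 50.7, 53.7 and 57.0 to 60.9, 65.01 and 68.1, or 0.26 (edgeR adjusted p = 0.00968). MRPS21 rose from 21.9, 19.4 and 21.96 to 23.9, 24.3 and 27.9, or 0.27 (edgeR adjusted p = 0.0238). Each of these rises exceeded the spread between libraries, with no overlap between groups. MRPS25 lost its call without NSI replicate 1 (edgeR adjusted p = 0.053), and MRPS21 without NSI replicate 2 (0.0846) or siFOXA1 replicate 3 (0.0723).

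By role, the large subunit had 15 of 50 members called lower in PC3 (median -0.32) and 24 of 50 in VCaP (median -0.19), with none called higher. The share called lower was 12.1% in PC3 and 23.3% in VCaP over all genes tested, and 13.5% and 30.02% over protein-coding genes. The share called higher was 15% and 22.5% over all genes tested, and 16.7% and 25.7% over protein-coding genes. At an unadjusted p under 0.05 the counts over all members stood at 0 higher in PC3 and 5 in VCaP, and DESeq2 called 0 and 4. The small subunit had 9 of 26 lower in PC3 (median -0.30) and 11 of 26 lower and 4 higher in VCaP (median -0.18). Members with a bacterial relative had 16 of 46 lower in PC3 and 19 lower and 2 higher in VCaP; those specific to mitochondria had 8 of 28 lower, and 15 lower and 2 higher. Around the stalk that recruits translation factors, 1 of 5 members was called lower in PC3 and 3 of 5 in VCaP. The central protuberance had 2 of 8 and 3 of 8. These 2 small classes differ from the shares called lower by few genes, and nothing is read from their counts. No difference between these classes was tested. Of the 3 MRPS18 genes, MRPS18A was called lower in VCaP (-0.19, edgeR adjusted p = 0.0359). That call was lost without NSI replicate 1 or 3 or siFOXA1 replicate 2 or 3, at edgeR adjusted p values of 0.0603 to 0.138. MRPS18B (-0.14 and 0.03) and MRPS18C (-0.14 and -0.19) were not called in either line. Overlap with RSPH9 on the other strand covers 56.9% of the exons of MRPS18A, and overlap with FAM175A 78.9% of those of MRPS18C, so their values in PC3 are uncertain.

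In all, 12 members were called lower in both lines: MRPL20, MRPS15, MRPS9, MRPL3, MRPL1, MRPS27, MRPS10, MRPS2, MRPL16, MRPL11, MRPL45 and MRPS7. Over the 19261 genes tested in both lines, 5.72% were called lower in both and 4.97% higher in both, which no member was. Another 12 were called lower in PC3 alone, 23 lower and 4 higher in VCaP alone, and 26 in neither; none was called in opposite directions. Among the shared members, MRPS15, a bacterial-type small-subunit protein, changed by -0.48 in each line. It went from 57.5, 74.4 and 58.2 to 43.2, 51.7 and 41.7 in PC3 and from 32.8, 32.6 and 33.8 to 24.3, 24.2 and 22.8 in VCaP. MRPL11, at the base of the stalk, changed by -0.50 and -0.43, and MRPL45 by -0.46 and -0.70. MRPS2 lost its VCaP call without siFOXA1 replicate 1 (edgeR adjusted p = 0.0703) or 2 (0.0589). In PC3, MRPS15, MRPL11 and MRPL45 lost their calls without siFOXA1 replicate 1 (edgeR adjusted p = 0.107, 0.148 and 0.0656). So did MRPL20, MRPS9, MRPS27 and MRPL16. Of the 12, only MRPL3, MRPL1, MRPS10 and MRPS7 kept both calls whichever library of the line was left out. The log2 fold changes of the 2 lines had a Spearman correlation of 0.30 across the 77 members, given as a description.

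**Figure D4:**
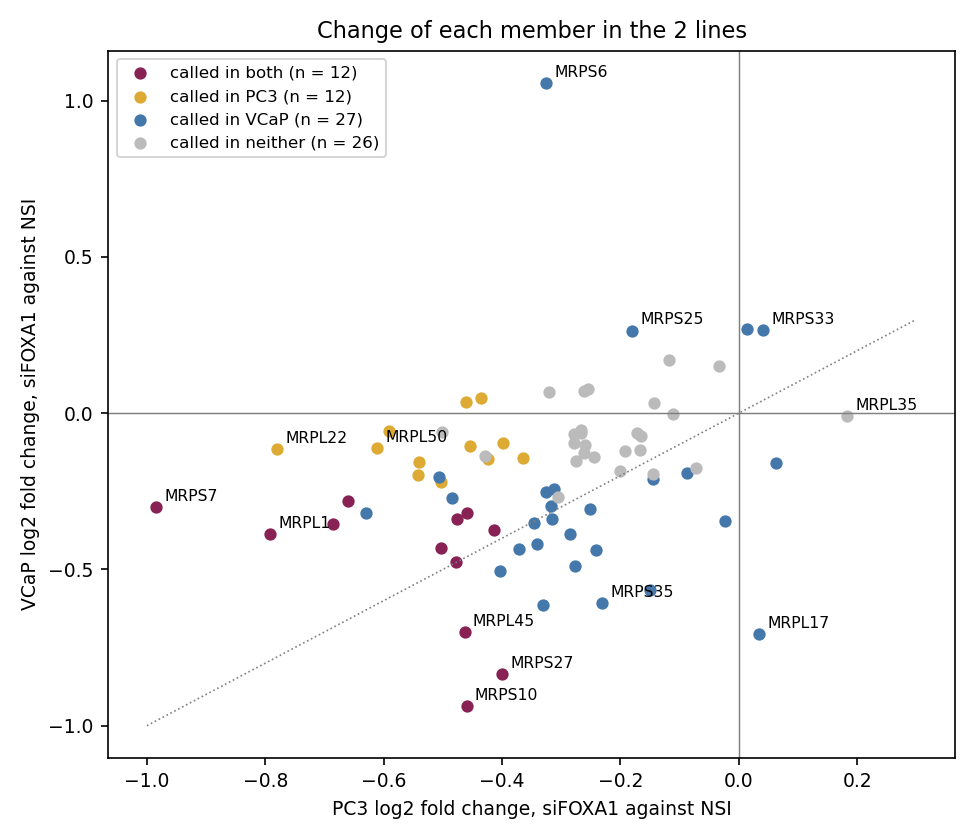
Log2 fold change of each member in PC3 (x axis) and VCaP (y axis); colour gives the line in which it was called, and the dotted line marks equal change. MRPS10, MRPS27 and MRPL45 lie below that line, MRPS7, MRPL1 and MRPL22 lie above it, and MRPS6 stands alone at the top.

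The difference between the lines was tested as the interaction over all 12 libraries, VCaP change minus PC3 change. Over 30425 genes, 11% were more negative in VCaP and 11.3% more positive; among members the counts were 4 and 10. MRPL17 differed by -0.72 (SE 0.18, edgeR adjusted p = 0.00823): in PC3 its CPM was 91.5, 127.3 and 106.0 under NSI and 98.6, 131.4 and 102.8 under siFOXA1, and those groups overlapped. MRPS10 differed by -0.46, MRPS27 by -0.42 and MRPS35 by -0.36 (edgeR adjusted p = 0.00888, 0.0277 and 0.0303). MRPS27 lost that call without VCaP NSI replicate 1 or 3 or VCaP siFOXA1 replicate 1 or 3, and MRPS35 without replicate 2 or 3 of either VCaP group, with edgeR adjusted p values up to 0.079 and 0.0796. MRPS6 differed by 1.40 (SE 0.18, edgeR adjusted p = 4.34e-05), with PC3 values of 32.9, 47.3 and 33.4 under NSI and 28.5, 34.3 and 27.8 under siFOXA1. MRPS7 differed by 0.70, MRPL22 by 0.68 and MRPL50 by 0.52 (edgeR adjusted p = 0.00169, 0.00913 and 0.00483). These counts moved with single libraries. More negative members numbered 10 without PC3 NSI replicate 2, 11 without both PC3 libraries numbered 2, and 2 without VCaP NSI replicate 3 or VCaP siFOXA1 replicate 3. More positive members numbered 6 without PC3 siFOXA1 replicate 1 or 3, VCaP NSI replicate 1 or 2, or VCaP siFOXA1 replicate 1. With the replicate block they numbered 6 and 24, and with library size alone 5 and 6.

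**Figure D5:**
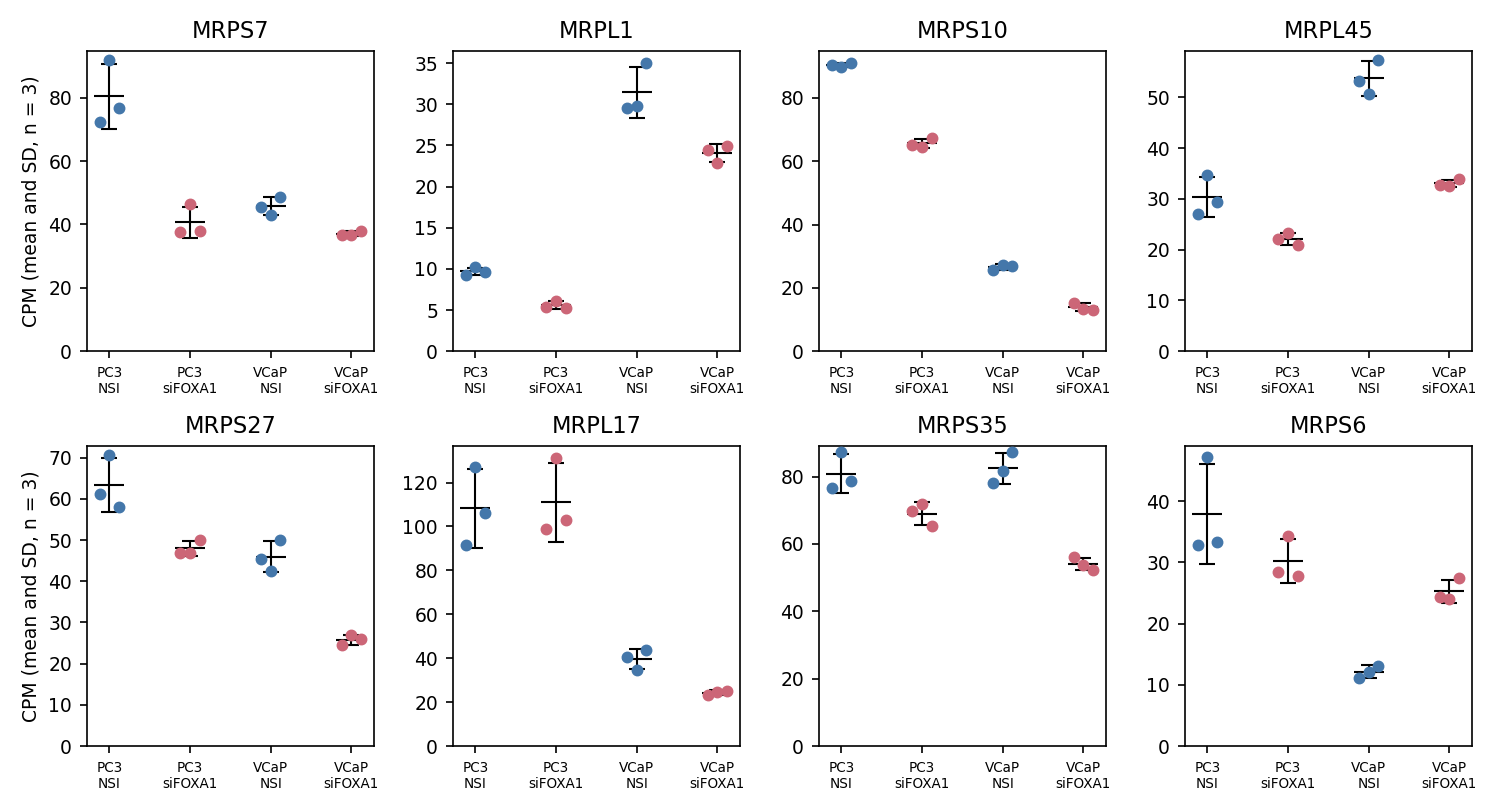
CPM of 8 members in every library (blue NSI, red siFOXA1), with the mean and SD of 3 libraries; each panel starts at 0. MRPS7 and MRPL1 separate most in PC3, MRPS10 and MRPS27 in both lines, MRPL17 and MRPS35 in VCaP, and MRPS6 is higher under siFOXA1 in VCaP.

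Other genes of mitochondrial translation were counted in the same fits, where 12.1% of all genes tested were called lower in PC3 and 23.3% in VCaP (13.5% and 30.02% of protein-coding genes). The shares called higher were 15% and 22.5% (16.7% and 25.7% of protein-coding genes). In every list of this paragraph the share called higher lies below these, in both lines. Mitoribosome proteins with other symbols had 4 of 6 called lower in each line and 0 higher; ICT1, a large-subunit protein that rescues stalled ribosomes, changed by -0.58 and -0.37 and PTCD3 of the small subunit by -0.34 and -0.31. ICT1 was placed in that list after the files were examined. Of 26 assembly factors, 8 were lower in PC3, and 4 lower and 1 higher in VCaP, where the lower share of 15.4% lies below that of all genes. RBFA, which matures the small subunit, fell in PC3 (-0.63) and RPUSD4, a pseudouridine synthase, did too (-0.50). In VCaP MTERF4 (-0.85) and the helicase DHX30 (-0.50) fell, and the rRNA methyltransferase TFB1M rose (0.77). Of 16 translation factors, 10 were lower in PC3, and 8 lower and 1 higher in VCaP; OXA1L, which inserts new peptides into the inner membrane, fell in both (-0.50 and -0.33). The initiation factor MTIF2 fell in PC3 (-0.42), and the recycling factor GFM2 (-0.38 in PC3, -0.35 in VCaP) fell in both lines. MTRF1L fell (-0.48) and MTRF1 rose (0.29) in VCaP. Of 20 mitochondrial aminoacyl-tRNA synthetases and related genes, 9 were lower in PC3, and 10 lower and 2 higher in VCaP. WARS2 (-0.62) and YARS2 (-0.68) fell in PC3, GATC (-0.82) and NARS2 (-0.71) fell in VCaP, and RARS2 (0.33) and EARS2 (0.18) rose there. Without siFOXA1 replicate 1, PC3 calls of RPUSD4, PTCD3, ICT1 and NARS2 were lost (edgeR adjusted p = 0.0693, 0.0544, 0.0564 and 0.0513); PTCD3 and NARS2 lost theirs without NSI replicate 3 too. In VCaP, MTRF1 lost its call without any 1 library except NSI replicate 2, and EARS2 without NSI replicate 1 or 2 or siFOXA1 replicate 2 or 3.

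TFAM, which packages and transcribes mitochondrial DNA, fell in both lines. It was 45.2, 39.4 and 44.6 CPM under NSI and 27.9, 25.9 and 30.1 under siFOXA1 in PC3 (-0.62, edgeR adjusted p = 0.0023). In VCaP it was 77.9, 85.2 and 83.4 and then 51.4, 47.3 and 45.4 (-0.77, edgeR adjusted p = 1.68e-05). Its list, mitochondrial transcription, had 3 of 5 lower in PC3, with TFB2M at -0.45, and 1 lower and 1 higher in VCaP, where MTERF1 rose (0.52). Of 10 regulators of nuclear genes for mitochondria, 7 were lower in PC3, and 3 lower and 2 higher in VCaP. Over all genes tested, 12.1% were called lower and 15% higher in PC3, and 23.3% and 22.5% in VCaP. The VCaP counts of the transcription and regulator lists lie near those shares, and nothing is read from them. MYC, a growth regulator, fell in PC3 from 809.6, 852.6 and 863.3 to 347.0, 392.0 and 368.6 (-1.19, edgeR adjusted p = 3.86e-05); in VCaP it was not called (-0.07). ESRRA, a nuclear receptor of mitochondrial genes, fell in PC3 (-0.80) and rose in VCaP (0.30), and its coactivator PPARGC1B did likewise (-0.64 and 0.95). GABPB1, a partner of an ETS factor, changed by -0.45 and -0.46, and HCFC1 by -0.44 and -0.58. GABPA, the ETS factor, was called lower in PC3 (-0.25, edgeR adjusted p = 0.0405) and not in VCaP (0.04). YY1 was likewise called lower in PC3 (-0.40, edgeR adjusted p = 0.00906) and not in VCaP (-0.06). NRF1 was called lower in VCaP (-0.32, edgeR adjusted p = 0.00317) and not in PC3 (-0.25). The PC3 calls of PPARGC1B and HCFC1 were lost without NSI replicate 1 or 3 or siFOXA1 replicate 1, and that of HCFC1 without siFOXA1 replicate 2. ESRRA lost its VCaP call without NSI replicate 1 or 2 or siFOXA1 replicate 2 or 3. The 2 mitochondrial rRNAs rose in VCaP (MT-RNR1 0.35, MT-RNR2 0.61) and were not called in PC3. Of 13 mitochondrially encoded mRNAs, 1 was lower in PC3 (MT-ND3, -0.33). In VCaP 1 was lower (MT-ND6, -0.37) and 3 were higher, among them MT-CO2 (0.60) and MT-CO1 (0.41). That higher share of 23.1% lies near that of all genes tested. The call of MT-ND3 was lost without any 1 PC3 library except siFOXA1 replicate 2, and that of MT-ND6 without NSI replicate 1 or 2 or siFOXA1 replicate 2 or 3. The part of these regulators and organelle RNAs in the members' changes was not tested.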

How the data were processed

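RNA-seq of 12 libraries was analysed. Per the file headers, the authors deposited expected counts per gene made with featureCounts 2.0.0 over exons of GENCODE v28lift37 on GRCh37, with fragments that mapped or overlapped several times divided among genes; PC3 counting ignored strand and VCaP counting was reverse-stranded. Per the submitters' processing notes, STAR 2.7.3a was used. The estimated counts were rounded and tested with edgeR 4.0.16 (R 4.3.3; TMM, filterByExpr, quasi-likelihood, two-sided) on the 6 libraries of each line, and over all 12 for the difference; adjusted p under 0.05 was a call. CPM used TMM factors. edgeR's common coefficient of biological variation came to 15.0% for PC3, 9.90% for VCaP and 12.8% for the joint fit. The standard error was the log2 fold change divided by the square root of F. Replicates differed by more than counting noise (chi-square per degree of freedom 11.05 to 158.5). DESeq2 1.42.0, other scalings, no filter, the replicate block and leaving out libraries were alternatives.

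Genes named in each line were the 6 lower and 4 higher calls with the smallest adjusted p, the 3 largest falls and rises among calls and the 3 highest and lowest TPM; then the 4 largest called differences of each sign, the 4 shared calls with the largest smaller change, MRPS18A, MRPS18B, MRPS18C, MRPL12 and FOXA1. From each related list, the 2 called genes of lowest adjusted p per direction and line were named. Other members, and some other genes of the related lists, were named after their values were seen. The members and lists were chosen with earlier results of these data known. The scripts were tested on simulated data. PECAM1, a marker in the list fixed for other cell types, was not analysed here.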

Additional observations from a re-analysis of the deposited data

Results flagged for a closer look

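The change after FOXA1 knockdown differed between PC3 and VCaP, by the interaction term over all 12 libraries, in 14 members and in FOXA1 itself. Of the members, 5.2% were called more negative in VCaP and 13.0% more positive. Over all genes tested these shares were 11% and 11.3%, so such calls are not particular to the members. The difference is VCaP minus PC3 on the log2 scale. Among small-subunit members it was 1.40 for MRPS6, 0.70 for MRPS7, 0.46 for MRPS25, -0.46 for MRPS10, -0.42 for MRPS27 and -0.36 for MRPS35. Among large-subunit members it was 0.68 for MRPL22, 0.52 for MRPL50, 0.52 for MRPL43, 0.50 for MRPL42, 0.42 for MRPL1, 0.40 for MRPL48, 0.37 for MRPL30 and -0.72 for MRPL17. FOXA1 differed by -1.93, and the siRNA dose differed too. The test for a single outlying sample needs at least 4 samples a group and was not applied to these groups of 3.

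The values that follow are for the related genes named above that the same test called. Other genes of those lists were called too, among them DAP3 (0.47), CHCHD1 (0.69), LARS2 (-0.44) and VARS2 (-0.51). RBFA differed by 0.87, RPUSD4 by 0.42, TFB1M by 0.70 and MTERF4 by -0.60. MTIF2 differed by 0.48, MTRF1 by 0.69 and MTRF1L by -0.37. WARS2 differed by 0.43, YARS2 by 0.50, RARS2 by 0.61 and GATC by -0.33. MTERF1 differed by 0.85, MYC by 1.13, ESRRA by 1.12, PPARGC1B by 1.61 and GABPA by 0.31. MT-ND3 differed by 0.63 and MT-CO2 by 0.58. Line, dose, medium, kit and strand use cannot be told apart in these differences. Among the 10 members more positive in VCaP, the calls of MRPL30, MRPL1, MRPL43 and MRPL48 were each lost on leaving out at least 1 library, and among the 4 more negative ones those of MRPS27 and MRPS35. The other 8 (MRPS25, MRPL22, MRPL50, MRPL42, MRPS7, MRPS6, MRPS10 and MRPL17) kept theirs whichever library was left out. Those of RPUSD4, GATC, MT-CO2, WARS2, MTRF1L and MT-ND3 were also lost on leaving out at least 1 library.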

How the results depend on the processing

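Called counts: lower members in PC3 were 24, and 18 to 34 under other scalings, no filter and DESeq2, 59 with the replicate block and 35 in the fit of all 12 libraries. Leaving out 1 library gave 10 to 42 lower and 0 higher members in PC3, and leaving out both numbered 2 gave 54 and 1, an alternative chosen after seeing the data. The block and the fit of all 12 libraries each gave 1 higher member in PC3. In VCaP the lower count was 35, 29 to 39 over leaving out 1 library, and 20 in the fit of all 12 libraries; the higher count was 3 to 5 over leaving out 1 library. For the difference between lines, leaving out 1 library gave 2 to 10 more negative and 6 to 12 more positive members; leaving out both PC3 libraries numbered 2 gave 11 and 10; the replicate block gave 6 and 24, and library size alone 5 and 6. Members without exon overlap or a pseudogene named after them number 33, a subset chosen after seeing the data. Of these 33, 9 were lower in PC3, and 17 lower and 1 higher in VCaP. The subset is smaller than the full set, so its counts cannot be compared directly with those above. The cause of the changes in count across the alternatives was not tested.

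The block rests on replicate numbers whose pairing is not settled. On log2 CPM with edgeR's prior count, the measure computed first, same-numbered PC3 libraries correlated at 0.15, 0.31 and 0.095, so not all pairs passed 0.1. On log2(CPM + 0.5), added after the block counts were known, they correlated at 0.41, 0.57 and 0.21, and all passed. Differently numbered PC3 libraries passed there too: NSI 1 with siFOXA1 3 at 0.35 and NSI 3 with siFOXA1 1 at 0.18. Differently numbered pairs that included a library numbered 2 were negative. Passing 0.1 therefore does not tell matched numbers from others for replicates 1 and 3. VCaP pairs did not all pass on either measure, with 0.092, 0.036 and 0.35 on the second. The block left the VCaP counts at 35 and 4.

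Each single-gene value was counted once for every alternative, so 1 gene enters many times. Of these pairs of value and alternative, 2849 kept direction and side of the threshold, 181 lost a call, 87 gained one and 99 changed sign. None of the values that changed sign was a call as reported. With DESeq2-type size factors, the values were in PC3 MRPS21 -0.0085, EARS2 -0.0199 and MT-CO1 -0.0209 and for the difference between lines MRPS15 -0.0146 and GABPB1 -0.0184. With upper-quartile factors, the values were in PC3 MRPL49 0.0046 and in VCaP MRPL35 0.0399. With library size alone, the values were in PC3 MRPS14 0.0244 and MRPL49 0.0348 and for the difference between lines MRPL55 -0.0306, MRPL3 -0.0315, MRPS15 -0.0708, MRPL11 -0.0001, PTCD3 -0.0397, GFM2 -0.039 and GABPB1 -0.0767. With no filter on low counts, the values were in PC3 MRPS21 -0.0142, EARS2 -0.0289 and MT-CO1 -0.0304. With DESeq2, the values were in PC3 MRPS21 -0.0079, EARS2 -0.0197 and MT-CO1 -0.0208 and for the difference between lines MRPS15 -0.0179 and GABPB1 -0.0214. With both PC3 libraries numbered 2 left out, the values were in PC3 MRPS21 -0.0201 and MT-CO1 -0.0295 and for the difference between lines MRPL24 -0.0122, MRPL55 -0.0291, MRPL3 -0.0111, MRPS15 -0.0757, PTCD3 -0.0203, GFM2 -0.0139, GABPB1 -0.0042 and MT-RNR1 -0.0023. With the fit of all 12 libraries, the values were in VCaP MRPL35 0.0225. Over leaving out 1 library, the ranges in PC3 were MRPS33 -0.0981 to 0.17, MRPS21 -0.22 to 0.18, MRPL17 -0.13 to 0.16, TFB1M -0.0239 to 0.26, EARS2 -0.0394 to 0.0265, MT-ND6 -0.25 to 0.0067, MRPS14 -0.12 to 0.0488, MRPL24 -0.33 to 0.0362, MRPL28 -0.28 to 0.0297, MRPS18A -0.20 to 0.0546, MT-CO1 -0.063 to 0.0658 and MT-CO2 -0.0499 to 0.0953. Over leaving out 1 library, the ranges in VCaP were MRPS18B -0.0195 to 0.0672, MRPL35 -0.0443 to 0.0129, MRPL24 -0.11 to 0.0113 and MYC -0.16 to 0.0659. Over leaving out 1 library, the ranges for the difference between lines were PTCD3 -0.0629 to 0.0851, GFM2 -0.0335 to 0.0819, GABPB1 -0.0718 to 0.0529, MT-RNR1 -0.048 to 0.14, MRPL24 -0.11 to 0.21, MRPL55 -0.19 to 0.16, MRPL2 -0.0088 to 0.24, MRPL3 -0.0134 to 0.12, MRPS26 -0.12 to 0.47, MRPS15 -0.14 to 0.0435, MRPL11 -0.085 to 0.15, MRPS34 -0.34 to 0.11 and MRPS18C -0.13 to 0.0096. The median over the members was -0.46 to -0.16 in PC3 and -0.23 to -0.13 in VCaP over leaving out 1 library.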
